A study of Mus musculus with 6 samples.

Results

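The genes described here are 9 pan-retinal ganglion cell markers, *Rbpms*, *Rbpms2*, *Thy1*, *Sncg*, *Nrn1*, *Slc17a6*, *Chrna6*, *Chrnb3* and *Gap43*, taken by name from the 43346 Ensembl genes of the count tables. All 9 were among the 15747 genes that passed the filter on low counts. Retinal ganglion cells (RGCs) from C57BL/6 mice were purified by immunopanning on CD90.1, a form of the product of *Thy1*, and grown in Full Sato medium with forskolin, BDNF and CNTF. C57BL/6 mice are known to carry the other form, CD90.2, a discrepancy of the sources that is not settled here. The sources give their age as embryonic day 18 in the account of the RNA sequencing and postnatal day 2 in the account of the culture. Cells at 250000 per well received an adeno-associated virus (AAV) 4 h after plating at about 100000 vector genomes per cell. The control virus carried EGFP alone, the Sox11 virus carried Sox11 with an IRES and EGFP, and the Sox11 K91A virus carried Sox11 with lysine 91 changed to alanine, with the same IRES and EGFP. RNA was taken 72 h after plating, and each group had 2 libraries. Lysine 91 is a site of SUMOylation, the attachment of a small protein that can alter where a transcription factor sits in the cell, and the comparison of both forms of Sox11 asks what this site adds to its effect on gene expression.

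RGCs are the output neurons of the retina, and their axons form the optic nerve. The 9 genes are used to recognize RGCs as a class, whatever their subtype, but their products do different work. RBPMS and RBPMS2 are RNA-binding proteins found in the retina largely in RGCs. THY1 and neuritin (*Nrn1*) are small proteins held at the cell surface by a lipid anchor. VGLUT2, made from *Slc17a6*, loads glutamate into synaptic vesicles, and the α6 and β3 subunits, made from *Chrna6* and *Chrnb3*, join other subunits in nicotinic acetylcholine receptors on RGC axons. γ-Synuclein (*Sncg*) is an abundant soluble protein of RGC cell bodies and axons, and GAP43 is a membrane-bound protein of growing axons.

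Upstream sequence was at hand for 3 of the 9 genes (*Slc17a6*, *Rbpms2* and *Sncg*), from RefSeq on GRCm38.p6. It is shown because Sox11 is a DNA-binding transcription factor, and these 3 genes were not chosen by their response. *Slc17a6* and *Rbpms2* fell with the Sox11 virus and *Sncg* did not pass the test, but 3 genes are too few to compare sequence with response. Each run is the 250 bases before the RefSeq start site, 5′ to 3′ on the strand of the gene, with CG dinucleotides in capitals. The RefSeq starts are 176 (*Slc17a6*), 934 (*Rbpms2*) and 120 (*Sncg*) bases from the outermost start of the gene in GENCODE, so the *Rbpms2* stretch and part of the *Sncg* stretch lie within the gene spans given further on.
Slc17a6, chr7:51621580-51621829, plus strand: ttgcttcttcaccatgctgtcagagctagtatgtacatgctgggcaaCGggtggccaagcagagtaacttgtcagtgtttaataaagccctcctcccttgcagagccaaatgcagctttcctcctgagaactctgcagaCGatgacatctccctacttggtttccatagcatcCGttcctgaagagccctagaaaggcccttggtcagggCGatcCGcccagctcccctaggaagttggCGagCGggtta
Rbpms2, chr9:65630332-65630581, plus strand: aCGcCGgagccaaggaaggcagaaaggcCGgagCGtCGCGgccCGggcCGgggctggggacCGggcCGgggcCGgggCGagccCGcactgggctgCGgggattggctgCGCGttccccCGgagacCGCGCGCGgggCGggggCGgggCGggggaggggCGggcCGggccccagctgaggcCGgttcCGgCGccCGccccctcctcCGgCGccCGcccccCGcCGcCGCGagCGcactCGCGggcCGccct
Sncg, chr14:34374670-34374919, minus strand: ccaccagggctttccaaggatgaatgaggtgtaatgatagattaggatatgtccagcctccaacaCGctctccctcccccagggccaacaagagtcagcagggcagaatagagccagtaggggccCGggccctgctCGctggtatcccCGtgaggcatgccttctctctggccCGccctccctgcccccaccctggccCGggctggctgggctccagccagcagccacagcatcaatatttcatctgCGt
The *Rbpms2* stretch held 41 CG dinucleotides and was 84.8% G and C. Those of *Slc17a6* and *Sncg* held 7 CG dinucleotides each, at 53.2% and 61.6% G and C. Over 32851 RefSeq windows the medians were 6.0 CG dinucleotides and 52.4%. A Sox-type core of 7 letters (A or T, again A or T, then CAA, then A or T, then G) was searched on both strands of the 300 bases from 250 before to 50 after each start. It was in none of these windows, nor in that of a further *Slc17a6* start site. Of all windows 24.64% held it, and with so few windows here its absence was not tested.

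The libraries held between 27521981 and 37061718 expected counts. *Sox11* RNA itself, which includes the viral transcript, stood at 234 and 332 CPM (counts per 1000000 counts of the library) in control replicates 1 and 2, at 9178 and 14590 with the Sox11 virus and at 11970 and 7026 with the Sox11 K91A virus. It was thus 41.6-fold higher with Sox11 and 33.0-fold higher with Sox11 K91A than in control cells (limma-voom adjusted p = 0.00753 and 0.00919). Control replicate 2 and Sox11 replicate 2 were separated from the remaining 4 by the second principal component (18.2% of the variance), with *Xist* at 95.9 and 254 CPM against 400.4 to 526 CPM elsewhere. Markers of amacrine cells, the other retinal neurons likely to be carried along, summed over 8 genes to 233 and 95.9 CPM in control cells, 113 and 37.9 CPM with Sox11 and 96.9 and 104 CPM with Sox11 K91A. Their part in the results was not tested, and results that rest on the libraries standing apart are given with and without them.

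In control cells the levels of the markers ran over more than 2 orders of magnitude when compared per length, as TPM (transcripts per 1000000 transcripts). *Sncg* was highest at 2505 ± 215 TPM (SD, n = 2), and *Gap43* followed at 2162 ± 237 TPM. They ranked 29 and 38 among the 13840 genes with at least 1 TPM. *Thy1* lay at 881 ± 83.8 TPM, in the top 146 genes. *Slc17a6* at 276 ± 52.4 TPM, *Rbpms* at 242 ± 28.2 TPM and *Nrn1* at 207 ± 74.7 TPM came next, and the ranges of neighbours among these 3 overlapped. *Rbpms2* (57.4 ± 0.297 TPM) was at 0.220 and 0.258 times the TPM of *Rbpms* in the 2 libraries. The nicotinic subunits were lowest, *Chrnb3* at 32.7 ± 16.1 TPM and *Chrna6* at 6.17 ± 1.10 TPM. With either virus both nicotinic subunits stayed lowest. The ranges of *Thy1* and *Rbpms* overlapped in both virus groups, and those of *Sncg* and *Gap43* with Sox11.

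Against control cells, 6 of the 9 markers fell with Sox11 and none rose. These were *Chrna6*, *Thy1*, *Nrn1*, *Chrnb3*, *Slc17a6* and *Rbpms2*, with folds between 1.58 and 7.07. Across all genes tested, 20.1% were called in either direction at a false discovery rate under 0.05 and a fold change above 1.2, and 10.2% were called lower. With Sox11 K91A, 3 of the 9 fell, *Chrna6*, *Nrn1* and *Slc17a6*, and again none rose, where 10.6% of all genes were called and 4.81% were called lower. The calls rested on single libraries in part. Without Sox11 replicate 2 no marker, and 0 of all genes, was called by limma-voom with Sox11, although 6 markers kept an unadjusted p under 0.05, and without control replicate 2 there were 3 calls. With Sox11 K91A no marker was called without control replicate 2 or without Sox11 K91A replicate 1 (0 and 19 of all genes, with 4 markers at an unadjusted p under 0.05 each time), and 1 was called without Sox11 K91A replicate 2. With control replicate 2 and Sox11 replicate 2 both left out, the counts were 3 with Sox11 and 5 with Sox11 K91A. The estimates of all 9 markers were below 0 in both comparisons, which share their control libraries. The median log2 fold change of the markers was -0.83 with Sox11 and -0.85 with Sox11 K91A, beside 0.01 and 0.02 over all genes. These are cultures of many cells, and the levels are relative to all RNA counted in a library. A lower share of RGCs among the cells and less marker RNA per RGC therefore cannot be told apart. The summed TPM of the 9 markers was 6125 and 6613 in control cells, 5301 and 3948 with Sox11 and 4743 and 5451 with Sox11 K91A. *Sncg* and *Gap43*, which were not called, made up most of this sum in every library, so it says little about the other markers.

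**Figure D1:**
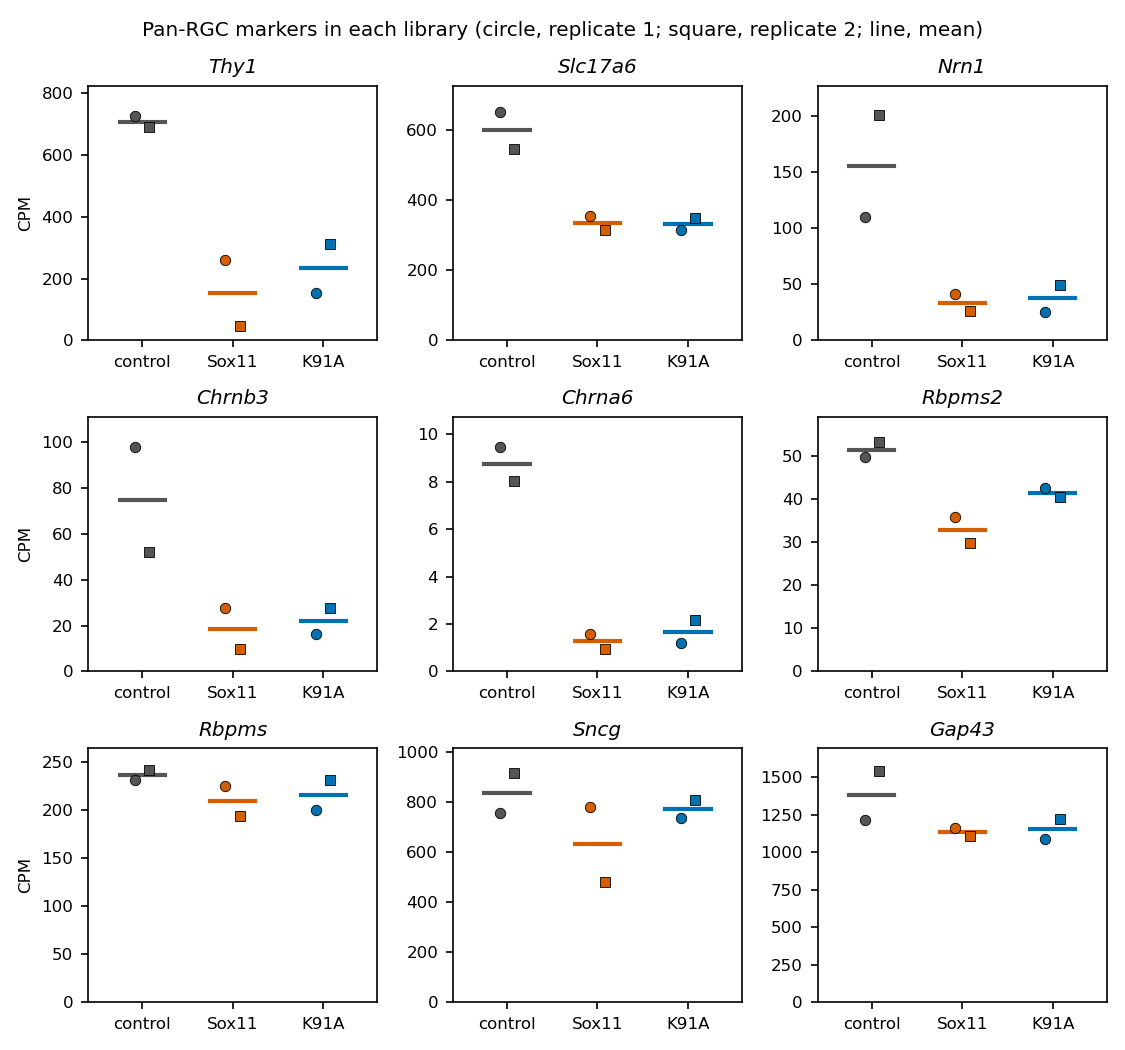
Level of each marker in CPM (linear axis from 0) in the 2 libraries of each group, with circles for replicate 1, squares for replicate 2 and a line at the mean. *Thy1* is at 689 and 725 CPM in control cells and at most 312 CPM in the 4 transduced libraries, whereas *Rbpms* stays between 194 and 242 CPM throughout.

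The α6 subunit gene *Chrna6* gave the largest fold among the markers. It lies on chr8:27403212-27413944 on the minus strand (GRCm38), next to *Chrnb3* on chr8:27368711-27399730 on the plus strand, with 3481 bases and no other annotated gene between them. *Chrna6* stood at 9.48 and 8.04 CPM in control replicates 1 and 2, at 1.57 and 0.965 CPM with Sox11 and at 1.18 and 2.16 CPM with Sox11 K91A. Both control libraries lay above all 4 transduced libraries. The counts behind these values were 265 and 310 in control cells and 32 to 63 in the others. The fall was 7.07-fold with Sox11 (log2 fold change -2.82, SE 0.41, limma-voom adjusted p = 0.0125) and 5.43-fold with Sox11 K91A (-2.44, SE 0.38, adjusted p = 0.0199).

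*Chrnb3*, which encodes the accessory β3 subunit, stood at 98.1 and 51.9 CPM in control cells, 27.6 and 9.83 CPM with Sox11 and 16.2 and 27.6 CPM with Sox11 K91A. The groups did not overlap, although the control replicates were 1.89-fold apart and those with Sox11 2.81-fold. It fell 4.46-fold with Sox11 (log2 fold change -2.16, SE 0.52, adjusted p = 0.0321 by limma-voom), and was called under 16 of 21 alternative settings. The fall was 7.33-fold without Sox11 replicate 1 and 2.58-fold without Sox11 replicate 2, where the call was lost. With Sox11 K91A its estimate was -1.76 (SE 0.49) and missed the threshold (adjusted p = 0.0642), while 8 of 21 alternative settings called it, DESeq2 among them. Without control replicate 2 and Sox11 replicate 2, a check added after seeing the data, *Chrna6* and *Chrnb3* passed in both comparisons.

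The other nicotinic subunits gave 2 calls among 9 tested with each virus, both rises. Of all genes tested, 20.1% were called in either direction with Sox11, about the same share, and 10.6% with Sox11 K91A. *Chrna4* and *Chrnb2*, which encode the α4 and β2 subunits of the most common neuronal receptor, rose with both viruses. *Chrna4* was at 63.6 and 74.6 CPM in control cells, 111 and 136 CPM with Sox11 and 133 and 104 CPM with Sox11 K91A. *Chrnb2* was at 237 and 179 CPM in control cells, 361 and 390 CPM with Sox11 and 392 and 341 CPM with Sox11 K91A. All 4 transduced libraries lay above both control libraries for both genes. The log2 fold changes with Sox11 were 0.83 (SE 0.18, limma-voom adjusted p = 0.0265) for *Chrna4* and 0.86 (SE 0.18, adjusted p = 0.0229) for *Chrnb2*. With Sox11 K91A they were 0.77 (adjusted p = 0.0445) and 0.83 (adjusted p = 0.0357), and both estimates stayed above 0 under all 21 alternative settings. The call of *Chrna4* with Sox11 K91A held under 8 of these, and under none that left out 1 library. *Chrna3*, the α3 subunit gene, was at 229 and 175 CPM in control cells and between 124 and 216 CPM with the viruses, and did not pass the test. Of the 14 other subunit genes, 9 were tested, and besides these 2 rises none was called in either comparison. With Sox11 5 of the 9 estimates were below 0, and with Sox11 K91A 4. The 7 that were not called were *Chrna1*, *Chrna2*, *Chrna3*, *Chrna5*, *Chrna7*, *Chrnb1* and *Chrnb4*.

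Among 8 chaperones and Ly6-type modulators of nicotinic receptors, 5 fell and 1 rose with Sox11, and 1 rose and none fell with Sox11 K91A (2 were called by edgeR and 5 by DESeq2). Over all genes tested, 20.1% were called with Sox11 (10.2% lower) and 10.6% with Sox11 K91A (4.81% lower). The gene that rose was *Tmem35a* (NACHO), a chaperone of receptor assembly, from 57.9 and 82.3 CPM in control cells to between 130 and 153 CPM in the 4 transduced libraries. Its log2 fold change was 1.05 with Sox11 and 0.99 with Sox11 K91A. The largest fall was that of *Lynx1*, a lipid-anchored protein that dampens receptor responses, from 682 and 421 CPM to 162 and 22.2 CPM with Sox11 (log2 fold change -3.18, limma-voom adjusted p = 0.0459). The estimate was -4.61 without Sox11 replicate 1 and -1.72 without Sox11 replicate 2. It was at 93.5 and 205 CPM with Sox11 K91A, which did not pass. The call with Sox11 held under 12 of 21 alternative settings. *Lypd1* (-2.57), *Lypd6b* (-2.18, and -2.79 or -1.41 without control replicate 1 or 2) and *Ly6e* (-1.57) also fell with Sox11, and *Ly6h* fell by 1.09 on the log2 scale. With Sox11 K91A the estimates were -1.37 for *Lypd1*, -2.49 for *Lypd6b*, -1.25 for *Ly6e* and -0.84 for *Ly6h*. These just missed the threshold (limma-voom adjusted p = 0.0502 to 0.0658), and none of the 8 was called between Sox11 K91A and Sox11. *Ric3*, another assembly chaperone, was between 67.9 and 82.7 CPM in every library.

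**Figure D2:**
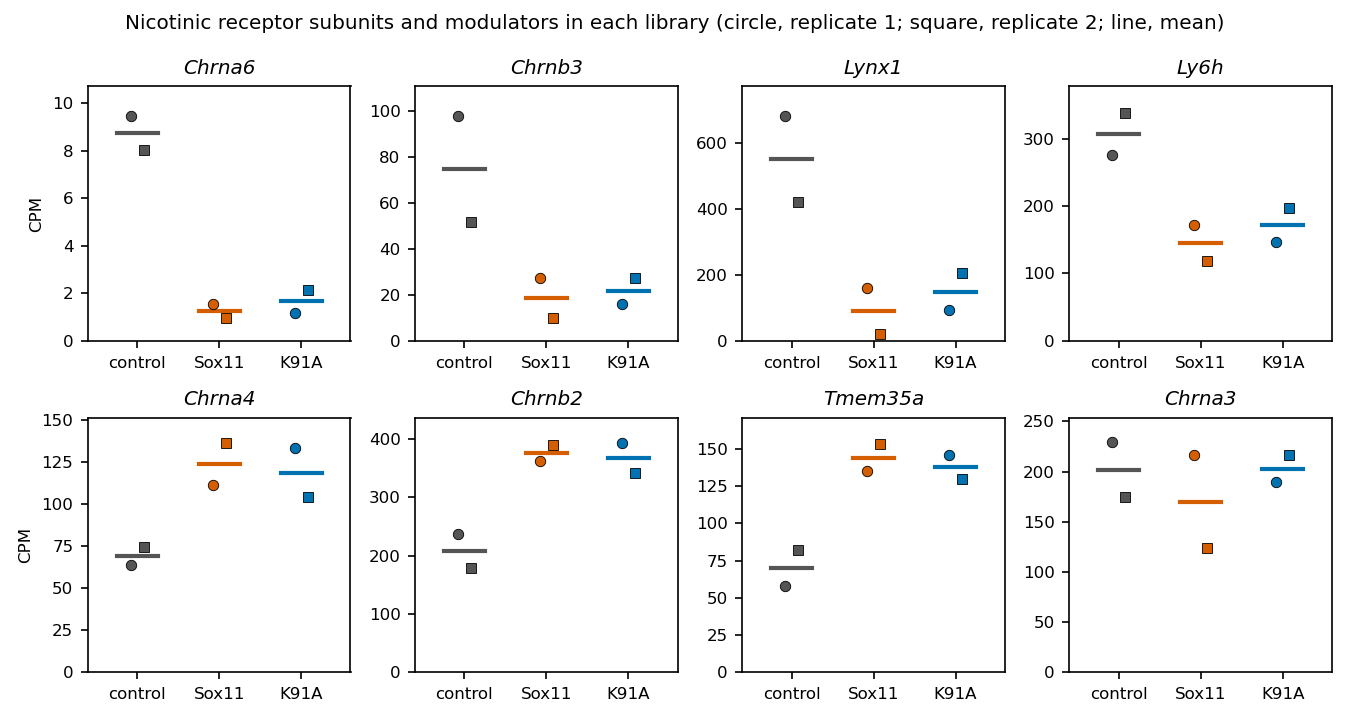
Level in CPM (linear axes from 0) of 4 nicotinic genes that were lower with Sox11 (*Chrna6*, *Chrnb3*, *Lynx1*, *Ly6h*), 3 that rose with both viruses (*Chrna4*, *Chrnb2*, *Tmem35a*) and *Chrna3*, with circles for replicate 1, squares for replicate 2 and a line at each mean. *Chrnb2* lies at 179 and 237 CPM in control cells and at 341 to 392 CPM in the transduced libraries, while *Chrna6* lies at 8.04 and 9.48 CPM and then at 0.965 to 2.16 CPM.

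*Thy1* (chr9:44043384-44048579, plus strand) encodes the surface protein by which, per the sources, the cells had been panned. It was at 725 and 689 CPM in control replicates 1 and 2, 259 and 46.3 CPM with Sox11 and 154 and 312 CPM with Sox11 K91A. All 4 transduced libraries were below both control libraries, but the Sox11 replicates were 5.58-fold apart and the Sox11 K91A replicates 2.02-fold. The fall with Sox11 was 6.44-fold (log2 fold change -2.69, SE 0.75, limma-voom adjusted p = 0.0478). It was 15.4-fold without Sox11 replicate 1 and 2.72-fold without Sox11 replicate 2. The fall was called under 10 of 21 alternative settings, not with edgeR or DESeq2 and not without Sox11 replicate 2. With Sox11 K91A the estimate was -1.69 (SE 0.76, adjusted p = 0.187). It passed when control replicate 2 and Sox11 replicate 2 were both left out.

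Neuritin is an activity-regulated promoter of neurite growth and synapse formation. *Nrn1* (chr13:36725361-36735131, minus strand) was at 109.7 and 201 CPM in control cells, 41.7 and 25.9 CPM with Sox11 and 25.3 and 49.6 CPM with Sox11 K91A. The lower control library was still above all transduced ones. *Nrn1* fell 4.54-fold with Sox11 (log2 fold change -2.18, SE 0.42, limma-voom adjusted p = 0.0192) and 4.20-fold with Sox11 K91A (-2.07, SE 0.41, adjusted p = 0.0303). Of its 2249 exonic bases, 501 are shared with *Fars2* on the other strand, which had at most 485 counts in a library. Whether the counting used strand is not given in the sources used here. *Nrn1l*, its close relative, fell from 3.15 and 3.40 CPM in control cells to at most 0.48 CPM with either virus (log2 fold change -3.33 with Sox11 and -3.40 with Sox11 K91A, the latter -2.73 or -4.04 without Sox11 K91A replicate 1 or 2).

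*Slc17a6* (chr7:51622006-51671119, plus strand) encodes the glutamate transporter of RGC terminals. Its level was 653 and 546 CPM in control cells, 356 and 316 CPM with Sox11 and 314 and 350.1 CPM with Sox11 K91A. The control libraries lay above all others, and replicates differed by at most 1.2-fold within any group. The transcript fell 1.78-fold with Sox11 (log2 fold change -0.83, SE 0.16, limma-voom adjusted p = 0.0193) and 1.80-fold with Sox11 K91A (-0.85, SE 0.16, adjusted p = 0.0272). It was called under 20 of 21 alternative settings with Sox11 and 18 of 21 with Sox11 K91A. None of 5 other vesicular transporter genes, *Slc17a7*, *Slc17a8*, *Slc32a1*, *Slc18a2* and *Slc18a3*, was called with either virus by limma-voom. At an unadjusted p under 0.05 there were 2 of them in each comparison, and edgeR and DESeq2 each called 0 with Sox11 and 1 with Sox11 K91A. The other vesicular glutamate transporters were near the detection limit, *Slc17a7* at no more than 1.29 CPM and *Slc17a8* at no more than 0.621 CPM.

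Of the paralogous RNA-binding proteins *Rbpms2* passed with Sox11 and *Rbpms* in neither comparison, and the difference between them was not tested. *Rbpms* (chr8:33782643-33929863, minus strand) was at 232 and 242 CPM in control cells, 225 and 194 CPM with Sox11 and 199.9 and 232 CPM with Sox11 K91A. The libraries with Sox11 lay below the control ones, but the difference of the means was less than the gap between the Sox11 replicates, and the higher library with Sox11 K91A was about level with the lower control library. Neither difference passed (log2 fold change -0.18, SE 0.15, limma-voom adjusted p = 0.418 with Sox11 and -0.14, SE 0.15, adjusted p = 0.589 with Sox11 K91A). The 95% intervals allowed ratios to control from 0.688 to 1.13 and from 0.709 to 1.17. *Rbpms2* (chr9:65629648-65660528, plus strand) was at 49.7 and 53.4 CPM in control cells, 36.0 and 29.9 CPM with Sox11 and 42.6 and 40.5 CPM with Sox11 K91A. Here the groups did not overlap and stood in the order control, Sox11 K91A, Sox11. *Rbpms2* fell 1.58-fold with Sox11 (log2 fold change -0.66, SE 0.15, adjusted p = 0.0289 by limma-voom), whereas with Sox11 K91A the estimate was -0.31 (SE 0.15, adjusted p = 0.204). The fall with Sox11 was called under 12 of 21 alternative settings.

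*Sncg* and *Gap43*, the most abundant of the 9, did not pass in either comparison. *Sncg* (chr14:34370274-34374789, minus strand) was at 757 and 915 CPM in control cells, 780 and 481 CPM with Sox11 and 734 and 806 CPM with Sox11 K91A. Its groups overlapped, and Sox11 replicate 2 was the lowest library. The estimates were -0.44 (SE 0.24, limma-voom adjusted p = 0.233) and -0.11 (SE 0.25, adjusted p = 0.803), and with both libraries that stood apart left out they were 0.05 and 0.03. *Gap43* (chr16:42248442-42340651, minus strand) was at 1218 and 1542 CPM in control cells, 1159 and 1112 CPM with Sox11 and 1090 and 1224 CPM with Sox11 K91A. The lower control library was close to the transduced ones, and the estimates were -0.27 (SE 0.17, adjusted p = 0.286) and -0.24 (SE 0.17, adjusted p = 0.376). The 95% interval of the ratio to control ran from 0.629 to 1.09 with Sox11 and from 0.640 to 1.11 with Sox11 K91A.

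*Sncb*, which encodes β-synuclein, a relative of γ-synuclein, was at 271 and 220 CPM in control cells and fell by 2.30 on the log2 scale with Sox11 (2.96 without Sox11 replicate 1 and 1.63 without replicate 2) and by 1.80 with Sox11 K91A. Of 10 other growth-associated membrane proteins, 5 rose and 2 fell with Sox11, and 3 rose and 2 fell with Sox11 K91A. The shares over all genes tested were 20.1% called with Sox11 (10.2% lower) and 10.6% with Sox11 K91A (4.81% lower). *Gpm6b*, *Marcks* and *Marcksl1*, a membrane glycoprotein gene and 2 genes for actin-linked membrane proteins, rose with both viruses. *Gpm6b* went from 27.1 and 29.5 CPM to 77.1 CPM and above with the viruses. *Nrgn* rose with Sox11 at a level of no more than 0.837 CPM, a call that held under 7 of the 20 alternative settings that tested it. Its log2 fold change of 3.28 became 4.345 without control replicate 1 and 2.002 without control replicate 2. *Sprr1a*, a regeneration-associated gene, fell with *Nrn1l* in both comparisons, from 7.23 and 18.4 CPM in control cells to between 0.465 and 1.36 CPM. Its log2 fold change was -3.46 with Sox11 and -4.01 with Sox11 K91A. Leaving out 1 library gave -4.057 to -2.715 with Sox11 and -4.658 to -3.272 with Sox11 K91A. *Basp1*, a protein much like GAP43 in its membrane role, was between 1050 and 1380 CPM and did not pass.

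**Figure D3:**
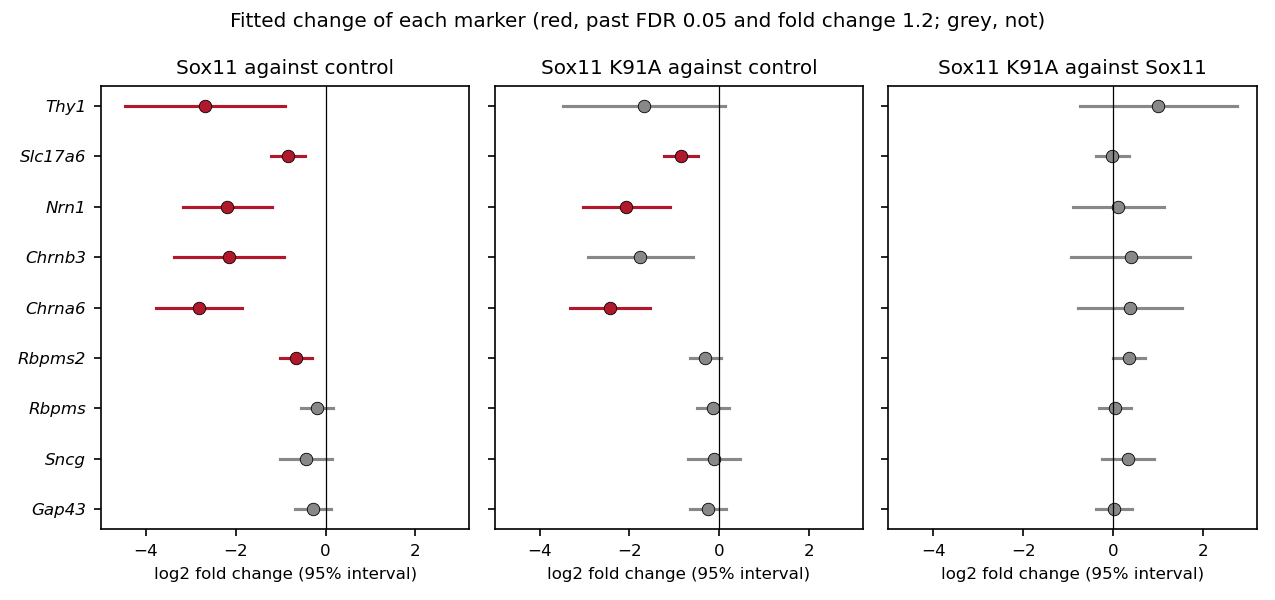
Log2 fold change of each marker (horizontal axis) with its 95% interval from limma-voom, with each virus set against control (first and second panels) and the mutated against the unmutated form (last panel), with red points past both thresholds and grey points not. All 9 estimates lie left of 0 in the panels against control, and all 9 intervals cross 0 in the last.

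Taken relative to *Rbpms*, which did not pass, the markers did not all shift alike. The TPM of *Thy1* was 3.59 and 3.71 times that of *Rbpms* in control cells, 1.37 and 0.307 times with Sox11 and 0.944 and 1.70 times with Sox11 K91A. *Slc17a6* went from 1.197 and 1.078 times *Rbpms* to between 0.694 and 0.770 times in the 4 transduced libraries. *Gap43* did not separate in this way, at 7.62 and 10.5 times in control cells and 7.77 to 9.34 times in the others. These ratios within a library show unequal change among markers, and do not show that *Rbpms* itself was constant.

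Sox11 K91A and Sox11 were compared directly, since this is the question of the mutated site. By limma-voom none of the 9 markers, and 0 of 15747 genes (0.0%), passed the threshold. At an unadjusted p under 0.05 there were 0 markers and 108 genes, edgeR called 0 genes, and DESeq2 called 2, neither a marker. The largest estimate was that of *Thy1*, at 1.00 (95% interval -0.74 to 2.75), and it became -0.24 without Sox11 replicate 2. The estimate of *Rbpms2* was 0.35 (95% interval -0.01 to 0.71), or a ratio of 0.989 to 1.63. For *Slc17a6* the interval of the ratio was 0.764 to 1.28, for *Rbpms* 0.805 to 1.32 and for *Gap43* 0.772 to 1.34. For *Chrna6* (0.584 to 2.90), *Chrnb3* (0.526 to 3.29) and *Nrn1* (0.536 to 2.18) it left room for changes in either direction of more than 1.5-fold. A difference between both forms of Sox11 was thus not detectable for these genes with 2 libraries each, and none of these intervals shows that they act alike.

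Other genes by which RGCs are known were read beside the 9. Of 12 RGC transcription factors, 11 were tested. With Sox11, 4 of these had an unadjusted p under 0.05 and *Ebf4* was the one called (log2 fold change -0.93, limma-voom adjusted p = 0.0336; also by DESeq2, not by edgeR), and with Sox11 K91A none was, with 0 at an unadjusted p under 0.05 and 0 called by edgeR or DESeq2. Besides *Ebf4*, those with an unadjusted p under 0.05 with Sox11 were *Isl2*, *Ebf3* and *Tbr1* (log2 fold change 0.47, 0.43 and -1.05), none of them called by limma-voom. *Pou4f1*, *Pou4f2* and *Isl1*, the factors most used to identify RGCs, were between 321 and 428, 79.8 and 119, and 260 and 289 CPM over all 6 libraries. The median log2 fold change of these factors was -0.07 with Sox11 and 0.08 with Sox11 K91A. Among 8 other genes broadly expressed in RGCs, 4 fell with Sox11 and 2 with Sox11 K91A, where 10.2% and 4.81% of all genes were called lower. In each comparison 5 of the 8 estimates were below 0. *Nefh* and *Nefm*, neurofilament subunits of large axons, fell in both. *Nefm* went from 3340 and 3420 CPM to at most 1600 CPM, and *Nefl* and *Ywhah* also fell with Sox11. *Tubb3* was between 1060 and 1510 CPM and *Elavl4* between 301 and 529 CPM, and neither passed.

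Of 11 pan-neuronal genes, 6 fell and 1 rose with Sox11, and 2 fell and 1 rose with Sox11 K91A. Across all genes tested, 10.2% and 4.81% were called lower. In each comparison 9 of the 11 estimates were below 0, with medians of -0.58 and -0.52. *Eno2*, neuronal enolase, fell by 1.88 on the log2 scale with Sox11 and *Syp*, a synaptic vesicle protein, by 1.26. *Rbfox3* (NeuN) fell by 1.23 with Sox11, and its estimate of -0.79 with Sox11 K91A did not pass. *Map2*, which binds microtubules in dendrites, rose from 556 and 509 CPM in control cells to 1100 CPM and above with Sox11.

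**Figure D4:**
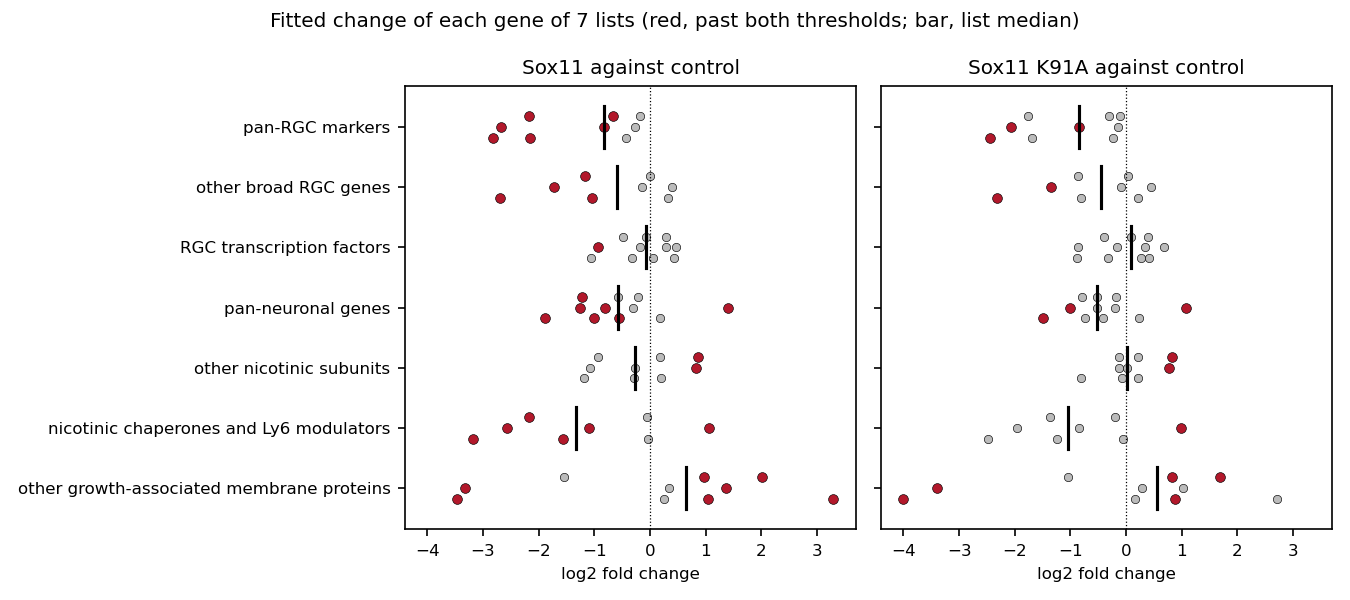
Log2 fold change of every tested gene in 7 lists (rows), for Sox11 against control and Sox11 K91A against control, with red points past both thresholds and a bar at each list's median. The median of the pan-RGC markers is -0.83 and -0.85, that of the RGC transcription factors -0.07 and 0.08.

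Genes of other cells were low, with exceptions that are given here as measured. Among 8 amacrine markers 7 were tested, and *Slc6a9*, a glycine transporter, fell with Sox11 and with Sox11 K91A (log2 fold change -2.14 and -1.75). *Tfap2a* and *Tfap2b*, transcription factors of amacrine cells, had estimates above 0 that did not pass (2.06 and 1.15 with Sox11, 2.62 and 2.13 with Sox11 K91A). *Gad1* and *Slc32a1*, of inhibitory neurons, were at 36.2 and 14.6 CPM in control replicate 1 and at 2.83 and 1.22 CPM in control replicate 2. *Gad2* was at 140.0 and 71.5 CPM in control cells and at 20.6 to 52.6 CPM with the viruses, which did not pass. The 7 genes of Müller glia and astrocytes summed to 103 to 109 CPM in control cells and 270.0 to 316 CPM with the viruses. *Glul*, glutamine synthetase, made up nearly all of it and rose with both (1.49 and 1.51), while *Gfap* had 0 counts in every library and *Aqp4* at most 0.248 CPM. Of the 5 tested, 2 had estimates below 0 with Sox11 and Sox11 K91A, *Rlbp1* (-2.51 and -2.70) and *Slc1a3* (-2.13 and -1.10). Those of *Aldh1l1* and *Pax2* were above 0. These 4 were not called, at no more than 3.74 CPM. Bipolar, photoreceptor, microglial and endothelial lists of 5 to 8 genes each summed to at most 4.67 CPM in any library. Within them *Pde6b* fell with Sox11, from 1.93 and 1.79 CPM, and *Pecam1* and *Tek* rose with Sox11 K91A, to no more than 2.23 CPM. Of the alternative settings that tested them, 9 of 20 called *Pde6b*, 7 of 21 *Pecam1* and 13 of 20 *Tek*. The log2 fold change of *Pde6b* was -6.97 without Sox11 replicate 1 and -2.15 without Sox11 replicate 2. None of the 7 pericyte and fibroblast genes (summed 10.3 to 24.1 CPM) or 4 tested cycling genes was called in either comparison by limma-voom, with 0 of the former and 1 of the latter at an unadjusted p under 0.05 in each comparison. Their part in the marker results was not tested.

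Over the 6 libraries, the genes whose log2 CPM ran most closely with that of *Rbpms* were *Gprc5c* (Pearson r = 0.988), *Amacr* (0.981), *Zfp956* (0.980), *Scpep1* (0.975) and *Tspyl3* (0.973), out of 9645 genes with a mean of at least 10 CPM. The 6 points share their 3 groups and the libraries that stand apart, so the values are given as a description. Among the 9 markers themselves, *Slc17a6* and *Chrna6* ran most closely together (r = 0.979), and *Sncg* and *Slc17a6* least (0.481).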

How the data were processed

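RNA of transduced mouse RGC cultures was sequenced, with 2 libraries for each of the 3 viruses, which the labels call duplicates. Nothing says that they came from separate cultures, so p-values measure only the spread between these libraries, which may be technical. The authors aligned reads to mm10 with STAR and counted them with RSEM, in versions and with a strand setting not given in the sources used here. The deposited tables hold raw expected counts, TPM values, which RSEM scales to 1 total per library, gene lengths, and the posterior standard deviation of each count, here read as a signal of counting ambiguity, which was 0.0 for every marker but *Rbpms2* (at most 1.26 counts). Symbols and coordinates came from GENCODE M21 on GRCm38, and upstream sequence from RefSeq on GRCm38.p6. Upstream sequence and proteins of the other 6 markers were not used here.

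Expected counts were rounded, filterByExpr (edgeR 4.0.16) left 15747 genes, and libraries were scaled by TMM (factors 0.985 to 1.04). Limma-voom (limma 3.58.1 in R 4.3.3) was fitted to all 6 libraries at once, as the authors' methods name this tool, with no covariate and 3 contrasts. A gene was called at a Benjamini-Hochberg FDR under 0.05 over all genes and a fold change above 1.2. All p-values are two-sided, errors on log2 fold changes are SE, errors on levels are SD over 2 libraries, and CPM uses TMM-scaled library sizes. The code was tested on simulated counts. Where groups of 2 libraries are said not to overlap, this describes the values, and its share over all genes is not given here. Alternatives were DESeq2 (1.42.0), the quasi-likelihood test of edgeR, limma-trend on log2(TPM + 1) and log2(TPM + 0.1), quality weights, other scalings, filters and groupings, replicate blocks, a term for *Xist* and leaving out each library.

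The markers and the 16 other gene lists were chosen with earlier results of these data known. All 9 markers were named in each comparison. From each other list up to 4 called genes with the largest change were named per comparison, with every tested gene of the nicotinic subunits, vesicular transporters and β-synuclein, the 5 genes most like *Rbpms*, and *Sox11*. Some related genes are not reported here. Other genes that are named (*Tubb3*, *Elavl4*, *Basp1*, *Ric3*, *Pou4f1*, *Pou4f2*, *Isl1*, *Isl2*, *Ebf3*, *Tbr1*, *Gad1*, *Gad2*, *Tfap2a*, *Tfap2b*, *Ly6h*, *Marcks*, *Gfap*, *Aqp4*, *Rlbp1*, *Slc1a3*, *Aldh1l1*, *Pax2* and *Xist*) were picked after their values were seen. Depth limits *Chrna6* most, at 32 to 310 counts.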

Additional observations from a re-analysis of the deposited data

How the results depend on the processing

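Of 21 alternatives per marker, the calls of *Slc17a6*, *Chrna6* and *Nrn1* against control were lost in at most 4 with either virus. The count of markers called with Sox11, 6, became 2 with quality weights, 3 with limma-trend on log2(TPM + 1) or log2(TPM + 0.1), 3 with both libraries that stood apart left out (chosen after seeing the data), and 0 to 7 on leaving out 1 library. With Sox11 K91A, 3 became 5 on fitting only the 2 groups compared, 5 with both left out, and 0 to 5 on leaving out 1 library. Where a group kept 1 library, it was assumed to vary like the others. Between Sox11 K91A and Sox11 the count stayed 0 in all these fits. In a fit with a replicate block, the counts were 6, 4 and 0 in the 3 comparisons, and 2679, 1402 and 0 over all genes. The labels do not say that the numbers pair libraries, and deviations of same-numbered libraries correlated at 0.259, -0.045 and -0.282 over genes. A crossed block for Sox11 K91A gave 6, 4 and 0 markers.

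Of the markers against control, only *Sncg* turned sign in its log2 fold change, to 0.048 with Sox11 (both left out), and with Sox11 K91A to 0.028 (both left out) and within -0.247 to 0.026 on leaving out 1 library. In Sox11 K91A against Sox11, leaving out 1 library gave -0.063 to 0.167 for *Rbpms*, -0.235 to 2.259 for *Thy1*, -0.02 to 0.691 for *Sncg*, -0.363 to 0.607 for *Nrn1*, -0.1 to 0.083 for *Slc17a6*, -0.032 to 0.831 for *Chrna6*, -0.392 to 1.107 for *Chrnb3* and -0.057 to 0.109 for *Gap43*. With both left out, *Rbpms* was at -0.064, *Thy1* at -0.236, *Sncg* at -0.02, *Nrn1* at -0.247, *Chrnb3* at -0.396 and *Gap43* at -0.005. On either TPM scale *Rbpms* was at -0.001 and *Gap43* at -0.017, and *Chrnb3* was at -0.247 with a term for the libraries low in *Xist*.

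Among related genes named in the text and at 10 CPM or more, the ones that turned sign were not called. Leaving out 1 library gave, with Sox11, -1.495 to 0.715 for *Chrna7*, -0.712 to 0.111 for *Chrna3* and -1.651 to 0.22 for *Slc18a2*. With Sox11 K91A it gave -1.334 to 0.872, -0.176 to 0.212 and -0.412 to 0.261 in the same order. *Chrna3* with Sox11 K91A was also at -0.006 with DESeq2, -0.014 on library size alone, -0.282 with the *Xist* term and -0.173 with both left out. The cause was not tested. Related genes under 10 CPM that were not called were not followed.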

Other observations

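In the order of their *Sox11* level, the 4 transduced libraries were Sox11 K91A replicate 2 (7026 CPM), Sox11 replicate 1 (9178 CPM), Sox11 K91A replicate 1 (11970 CPM) and Sox11 replicate 2 (14590 CPM), so the order alternates between both forms of Sox11. *Thy1* stood at 312, 259, 154 and 46.3 CPM in this order, and *Rbpms* at 232, 225, 199.9 and 194 CPM. *Sncg* was at 806, 780, 734 and 481 CPM, and *Chrna6* at 2.16, 1.57, 1.18 and 0.965 CPM. These 4 of the 9 markers (44.4%) fell at every step, as did 2187 of 15747 genes tested (13.9%), while 1961 genes (12.5%) rose at every step. With 4 libraries the order was not tested, it was noticed after the values were seen, and the library at its end, Sox11 replicate 2, is also one that stands apart by *Xist*.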
